A study of Microcebus murinus with 18 samples.

Results

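Voltage-gated calcium channels open when a cell membrane is depolarised and let calcium in, which starts transmitter release at nerve terminals and signals to the nucleus in cell bodies. A channel is built around 1 pore-forming subunit. A cytoplasmic beta subunit binds the pore-forming protein and helps it to reach the membrane, and an alpha2delta subunit sits on the outer face and raises the number of channels at the surface. Of the genes described here, CACNA1A and CACNA1B encode the pores of P/Q-type and N-type channels, the main channels of nerve terminals. CACNA1E encodes the pore of R-type channels. CACNA1C and CACNA1D encode the pores of L-type channels, which lie mostly on cell bodies and dendrites. CACNB1, CACNB2, CACNB3 and CACNB4 encode beta subunits, and CACNA2D1 encodes the alpha2delta subunit that binds gabapentin.

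These 10 genes were followed in the temporal cortex of 2 AD-like, 10 old and 6 young adult grey mouse lemurs (Microcebus murinus), a small primate. The AD-like animals were old lemurs whose brains held amyloid plaques and showed cortical atrophy, and both were female. The old animals were healthy (7 females and 3 males), and the young adults were 4 females and 2 males. RNA of each animal was hybridized to 1 human array, so a signal depends on how well human probes match the lemur transcript, and groups were compared within a probe set, not across probe sets. In whole tissue, fewer cells of a type and less RNA per cell cannot be told apart.

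Members were taken by gene symbol. The 10 genes were chosen with results of these arrays in view, and the AD-like, old and young adult values below belong to the contrasts that chose them, so those differences are given as a description with no test. Of 19775 genes named alone by a probe set, 9 of the 10 were present. They had 34 probe sets, and CACNB4 was not analysed here. The 14 probe sets bright enough to be kept (defined by the third-highest signal, which had to reach 147.5) covered all 9 genes. CACNB1 and CACNB3 were kept with every probe set, 3 and 2. CACNA1A was kept with 2 of 5, CACNB2 with 2 of 6, CACNA1C and CACNA1D with 1 of 4 each, CACNA1E with 1 of 6, and CACNA1B and CACNA2D1 with 1 of 2 each. Just inside the limit lay CACNB2 1555098_a_at and CACNA1D 1555993_at, and just outside it lay CACNA1E 240650_at, whose third-highest signal was 119.3. The 20 probe sets not kept had signals of 1.97 to 212.0, and 16 of them lay above the array median in no more than 9 of the 18 animals. Their log2 differences ran from -0.59 to 1.22 for AD-like minus old and from -1.08 to 0.24 for old minus young adult.

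Some arrays stood apart. The arrays of AD-like F2, old M1, old M2 and young adult M2 gave little signal for the poly-A controls, bacterial RNAs that can be mixed into a sample before labelling, with sums over 4 control probe sets of 40.9 to 111, against 789 to 6959 on the other 14 arrays. The 4 arrays are called arrays without poly-A control signal below, the limit of the sum was set after the sums had been seen, and the labels do not say whether the 4 arrays were prepared apart. They held 3 of the 5 males. Array medians ran from 30.7 to 54.4, so a signal in that range is that of a middling probe set and gives little measure of a transcript. All 6 neuronal marker genes were kept (SNAP25, SYT1, NEFL, SLC17A7, GAD1 and RBFOX3), and their summed signals were 44013 in AD-like F1, 18523 in AD-like F2, 29692 to 51955 in old animals and 13172 to 46513 in young adults. AD-like F2 thus lay below all 10 old animals in this sum, and the lowest old animal, old M1, was also on an array with little control signal. The sum adds linear signals, so the brightest probe sets weigh most in it. SNAP25 202508_s_at was 39885 of a sum of 49248 in old F2. In AD-like F2 it was 8268, against an old median of 29780. The sum does not speak for each marker: SYT1 203999_at was 4962 in AD-like F2, above the old median of 4140. Of the other marker lists, 3 of 4 astrocyte genes were kept (GFAP was not), 3 of 4 oligodendrocyte genes, 2 of 4 endothelial genes, none of 4 microglial genes (AIF1, CSF1R, CX3CR1 and C1QB) and 1 of 4 skeletal muscle genes (MB), with ACTA1, MYH2 and CKM not kept.

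**Figure D1:**
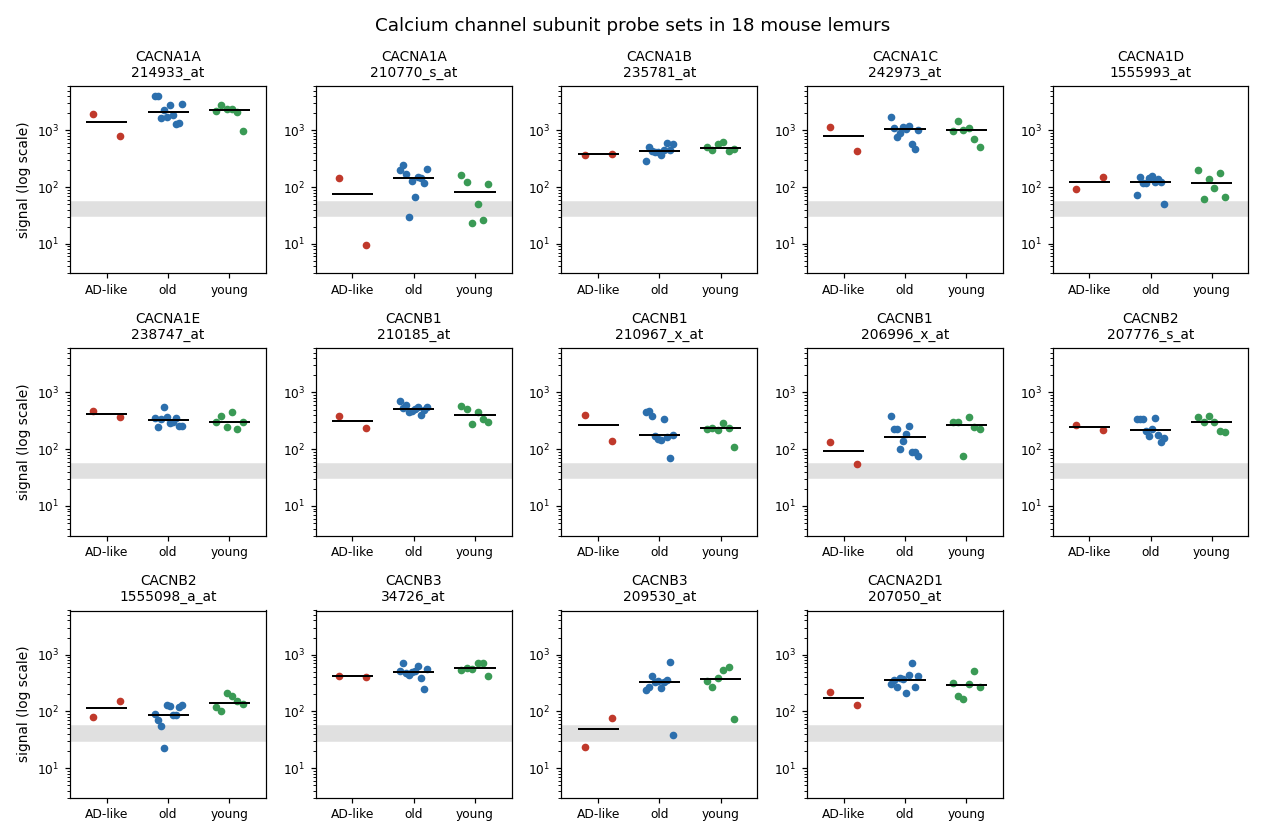
Signals of the 14 calcium channel subunit probe sets kept, 1 panel each, with a log vertical axis, 1 point per animal (2 AD-like, 10 old and 6 young adult) and a bar at each group's median. The grey band spans the array medians, 30.7 to 54.4. CACNA1A 214933_at and CACNA1C 242973_at lie far above the band in every animal, and CACNB3 209530_at falls into or near it in both AD-like animals, in old M3 and in young adult M2.

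Among the genes for P/Q-type, N-type and R-type pores, CACNA1A and CACNA1B had negative and CACNA1E a positive AD-like minus old difference. CACNA1A 214933_at, for the P/Q-type pore, had signals of 1945 and 803 in AD-like animals. In old animals its lowest, median and highest signals were 1292, 2097 and 4081, and in young adults 975, 2269 and 2800. AD-like F2 lay below all 10 old animals, while AD-like F1 lay among them. On the log2 scale the difference was -0.82 (SE 0.46) for AD-like minus old and 0.13 (SE 0.31) for old minus young adult. The size of the first rested on AD-like F2, since it was -0.19 when that animal was left out and -1.45 when AD-like F1 was. AD-like F2 was also below all old animals in the neuronal marker sum, and the part of that in the low signal was not tested.

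The second CACNA1A probe set, 210770_s_at, was above the array median in 14 of 18 animals. Its signals were 144 and 9.61 in AD-like animals, 29.8 to 244 in old animals (median 146) and 23.5 to 163 in young adults (median 83.1). Old animals tended to lie high, with 8 of 10 above the young adult median, but the groups overlapped. The filter kept this probe set through old F2 (243.9), old M3 (212.2) and old F1 (200.8). Among young adults F1 (162.9) lay above the limit of the filter, and the next, F2 (125.2), did not. The part of this selection in the high place of old animals was not tested. Old minus young adult came to 0.79 (SE 0.44) and AD-like minus old to -1.20 (SE 0.66) on the log2 scale. The AD-like difference turned to 0.12 once AD-like F2 was left out and was -2.52 with F2 alone.

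CACNA1B 235781_at, for the N-type pore, gave the closest pair of AD-like values among the pore-forming genes, 372 and 383. Signals were 291 to 600 in old animals (median 437) and 431 to 626 in young adults (median 489). The AD-like animals were within the old range and below all 6 young adults. Differences were -0.22 (SE 0.29) for AD-like minus old, -0.19 (SE 0.19) for old minus young adult and -0.41 (SE 0.30) for AD-like minus young adult.

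CACNA1E 238747_at, for the R-type pore, had the most positive AD-like minus old difference of the kept pore-forming probe sets. Its signals were 468 and 364 in AD-like animals, 247 to 560 in old animals (median 324) and 231 to 460 in young adults (median 301). The AD-like animals were both above the old median and within the old range, where old F4 was the highest. The log2 difference was 0.33 (SE 0.32) for AD-like minus old, 0.50 with F1 as the only AD-like animal and 0.16 with F2. Between old and young adult animals it was 0.06 (SE 0.22), and -0.03 without old F4.

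The L-type pores showed no shift common to both AD-like animals. CACNA1C 242973_at had signals of 1140.1 and 430 in AD-like animals, 468 to 1721 in old animals (median 1042) and 509 to 1469 in young adults (median 993). AD-like F2 was the lowest of all 18 animals, and AD-like F1 was above the old median. The log2 difference was -0.41 (SE 0.44) for AD-like minus old, but 0.28 with F1 as the only AD-like animal and -1.09 with F2 as the only one. For old minus young adult it was 0.03 (SE 0.29). The part of the low neuronal marker sum of AD-like F2 in its signal was not tested. CACNA1D 1555993_at was dim, with 91.5 and 150.1 in AD-like animals, 49.4 to 160 in old animals (median 124) and 60.5 to 196 in young adults (median 118). Its groups overlapped throughout, with differences of 0.04 (SE 0.41) for AD-like minus old and 0.02 (SE 0.27) for old minus young adult.

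Among the beta subunits, CACNB3 had both the largest AD-like difference of the 14 probe sets and a second probe set with a difference smaller than its standard error. CACNB3 209530_at had signals of 23.5 in AD-like F1 and 75.3 in AD-like F2. Among old animals it was 38.7 in old M3, 240 to 417 in 8 animals and 745 in old M2. Among young adults it was 73.4 in young adult M2 and 268 to 612 in the others. AD-like F1 was the lowest of all 18 animals, whereas AD-like F2 lay above old M3 and young adult M2, so the groups overlapped. The log2 difference was -2.32 (SE 0.68) for AD-like minus old and -2.46 (SE 0.72) for AD-like minus young adult. Adding 1 in place of 16 to the signals made it -2.69 and adding 50 made it -1.84, and the signal of AD-like F1 lay below its array median of 44.3. It was -1.72 with F2 as the only AD-like animal and -2.92 with F1 as the only one. Between old and young adult animals it was -0.13 (SE 0.46), and this sign turned without old M3 (0.14). Old M2 (744.9), young adult M1 (611.9) and young adult F4 (539.4) took this probe set past the filter. Both AD-like signals lay below the limit of the filter. The part of this selection in the AD-like differences was not tested.

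CACNB3 34726_at was designed on the same human messenger RNA as 209530_at, and both probe sets name CACNB3 alone. Its signals were 428 and 399.9 in AD-like animals, 244 to 713 in old animals (median 501) and 419 to 727 in young adults (median 578). Each AD-like animal was below the old median and inside the old range. The log2 differences were -0.21 (SE 0.33) for AD-like minus old, -0.27 (SE 0.22) for old minus young adult and -0.48 (SE 0.35) for AD-like minus young adult. With arrays without and with poly-A control signal as a block, AD-like minus old was -0.03 and AD-like minus young adult -0.28.

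The 2 CACNB3 probe sets thus ordered the animals differently. The gap between 2 probe sets says nothing of levels, and only its variation among animals is given here. The difference in log2(signal + 16) between 209530_at and 34726_at within an animal was -3.49 and -2.19 in AD-like animals. It averaged -0.73 ± 1.23 (SD, n = 10) in old animals, from -3.37 in old M3 to 1.55 in old M2, and -0.86 ± 0.75 (SD, n = 6) in young adults, from -2.28 in young adult M2 to -0.23. The 4 animals low on 209530_at (AD-like F1, AD-like F2, old M3 and young adult M2) had 428, 399.9, 548 and 419 on 34726_at. Their array medians were 44.3, 53.0, 49.9 and 53.3, and the part of array brightness in the difference was not tested. AD-like F1 and old M3 had arrays with poly-A control signal, AD-like F2 and young adult M2 had arrays without it, and with the array set as a block the difference of 209530_at was -2.36. Within the 14 arrays with control signal, where AD-like F1 is the only AD-like animal, it was -2.72.

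**Figure D2:**
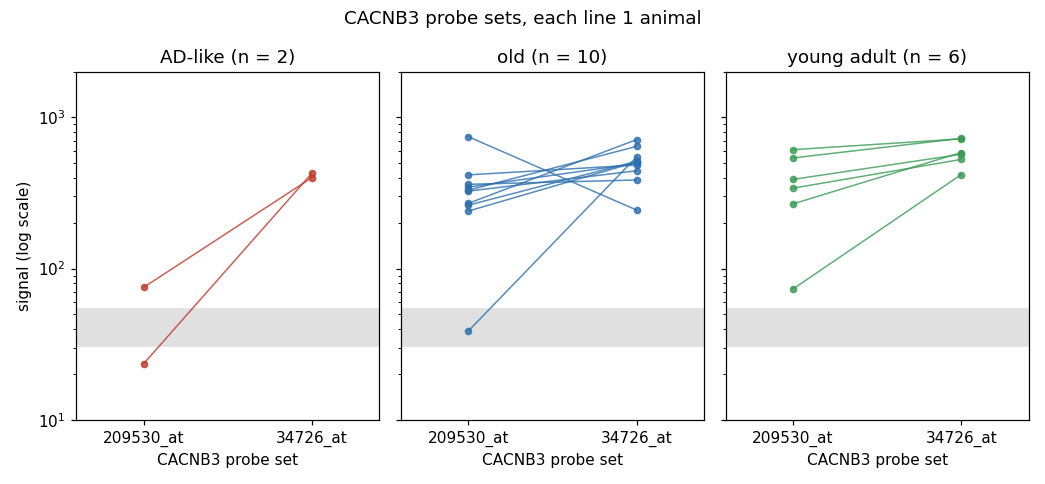
Signals of both CACNB3 probe sets in each animal on a log vertical axis, 1 line per animal, for AD-like (n = 2), old (n = 10) and young adult (n = 6) lemurs. The grey band spans the array medians. Both AD-like lines climb steeply, from 23.5 and 75.3 on 209530_at to 428 and 399.9 on 34726_at, as do those of old M3 and young adult M2, while the line of old M2 falls from 745 to 244.

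CACNB1, the paralog best known as the beta subunit of skeletal muscle channels and also present in brain, was measured by 3 kept probe sets that did not move together. CACNB1 210185_at had signals of 383 and 239 in AD-like animals, 400.4 to 702 in old animals (median 520.1) and 275 to 568 in young adults. Both AD-like animals lay below all 10 old animals, and all 10 old animals lay above the young adult median. The log2 difference was -0.75 (SE 0.31) for AD-like minus old and 0.39 (SE 0.21) for old minus young adult. With F1 as the only AD-like animal the difference was -0.43, and with F2 it was -1.08.

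The other CACNB1 probe sets carry the suffix _x_at, which marks sets with some probes that also match other human sequences. CACNB1 206996_x_at had 132 and 53.8 in AD-like animals, 75.4 to 379 in old animals (median 163) and 75.5 to 366 in young adults (median 272). In old against young adult animals its sign was opposite to that of 210185_at, with 9 of 10 old animals below the young adult median and a difference of -0.51 (SE 0.35). For AD-like minus old it was -0.76 (SE 0.53), and -0.22 once AD-like F2 was left out. Both AD-like signals lay below the limit of the filter, and the part of this selection in the difference was not tested. CACNB1 210967_x_at had 406 and 137 in AD-like animals, 69.4 to 474 in old animals (median 177) and 108 to 296 in young adults (median 232). Its AD-like animals lay on either side of the old median, and the difference of 0.11 (SE 0.54) became -0.62 with F2 as the only AD-like animal and 0.84 with F1.

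CACNB2, a beta subunit of heart and brain channels, had AD-like minus old differences on both kept probe sets that were smaller than their standard errors. CACNB2 207776_s_at had 263 and 221 in AD-like animals, 135 to 351.1 in old animals (median 216) and 202 to 385 in young adults (median 303). CACNB2 1555098_a_at had 79.8 and 150.1 in AD-like animals, 22.7 to 132 in old animals (median 87.1) and 103 to 208 in young adults (median 143). The AD-like minus old difference of 207776_s_at was 0.06 (SE 0.38), its sign was the other one in 8 of 31 alternatives, and among females alone it was -0.16. That of 1555098_a_at was 0.33 (SE 0.42), but -0.07 with F1 as the only AD-like animal and 0.72 with F2. With age 1555098_a_at had the lowest value of the 14 probe sets, -0.69 (SE 0.28) for old minus young adult. All 10 old animals lay below the young adult median and 6 of them below all 6 young adults. The filter kept this probe set through young adult F3 (207.5), young adult F4 (188.4) and AD-like F2 (150.1). The highest old signal, 132, lay below the limit of the filter. The part of this selection in the difference was not tested. For 207776_s_at old minus young adult was -0.30 (SE 0.25). CACNB2 1555098_a_at and CACNB1 210185_at are also on a list that the study drew from these arrays, so their direction has no independent support here.

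CACNA2D1 207050_at had signals of 224 and 128 in AD-like animals, 210.1 to 707 in old animals (median 359) and 165 to 524 in young adults (median 290.2). AD-like F2 was the lowest of all 18 animals, and AD-like F1 lay just above the lowest old animal. Its log2 differences were -1.0 (SE 0.40) for AD-like minus old and 0.34 (SE 0.27) for old minus young adult. Against old animals AD-like F1 alone gave -0.63 and AD-like F2 alone -1.37, and the arrays with poly-A control signal gave -0.56. A second CACNA2D1 probe set, 227623_at, was too dim to be kept and lay above the array median in 5 of 18 animals. It had 0.06 (SE 0.51) for AD-like minus old and -0.09 (SE 0.34) for old minus young adult.

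**Figure D3:**
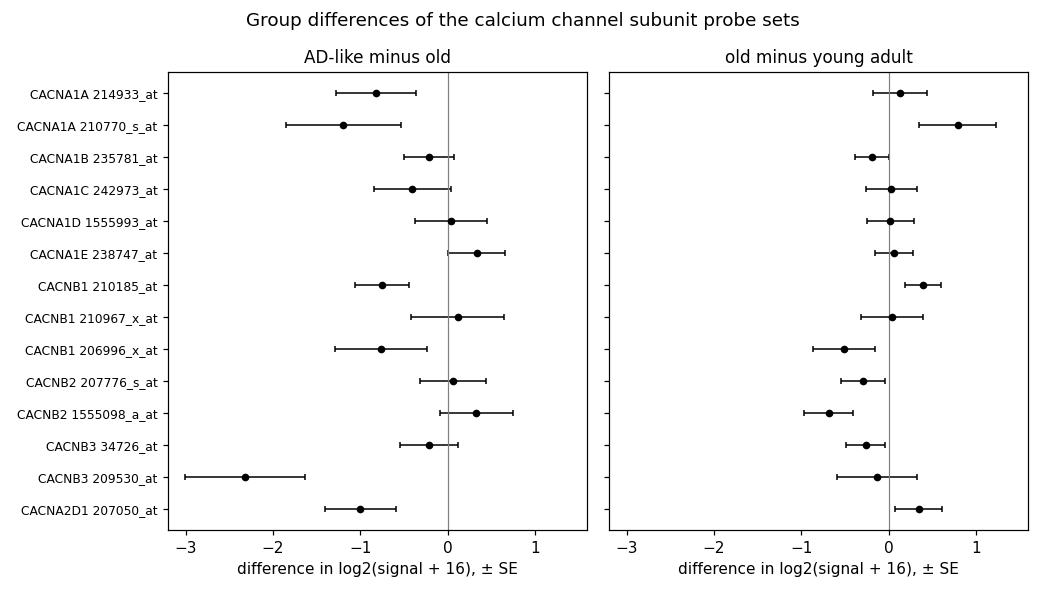
Differences in log2(signal + 16) with their standard errors from limma for the 14 calcium channel subunit probe sets, AD-like minus old at the left and old minus young adult at the right. CACNB3 209530_at stands farthest to the left at -2.32, while CACNB3 34726_at is at -0.21. On the right the points run from -0.69 (CACNB2 1555098_a_at) to 0.79 (CACNA1A 210770_s_at).

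Over the 14 kept probe sets, AD-like minus old was positive for 5 and negative for 9, and the median log2 difference was -0.31, against -0.02 over all kept probe sets. No test of the members is given for the contrasts that chose them. Both AD-like animals lay below all old animals for 1 of the 14 (CACNB1 210185_at) and for 1.62% of all, and above all old animals for none of the 14 and for 1.43% of all. Because these contrasts chose the genes, nothing is read from the counts.

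For old minus young adult, the log2 difference was positive for 8 and negative for 6, and the median was 0.03, as over all kept probe sets (0.03). For AD-like minus young adult, it was positive for 3 and negative for 11, with a median of -0.39 against 0.02 over all. Both AD-like animals lay below all 6 young adults for 1 of the 14 (CACNA1B 235781_at) and for 2.95% of all. The AD-like differences from old and from young adult animals share the same 2 AD-like arrays, and those of AD-like minus old and old minus young adult share the 10 old animals.

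Sex was no part of how the genes were chosen and was tested with the group in the model. Of the 14 probe sets 10 had a positive and 4 a negative female minus male difference. An unadjusted p under 0.05 in limma was reached by 3, all higher in females, and by 28.9% of all kept probe sets, and the adjusted one by 2 against 10.2% of all. CACNB2 207776_s_at had signals of 169 to 385 in 13 females (median 304) and 135 to 206 in 5 males (median 176). Of the females 12 lay above all males. The difference was 0.73 (SE 0.20, limma, adjusted p = 0.0306). CACNA1C 242973_at had signals of 430 to 1721 in females (median 1099.8) and 468 to 1012 in males (median 564), with a difference of 0.80 (SE 0.25, limma, adjusted p = 0.0485). CACNB1 210967_x_at had 137 to 474 in females (median 239) and 69.4 to 240.3 in males (median 164), with a difference of 0.82 that did not pass (SE 0.33, limma, adjusted p = 0.109).

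The sex difference overlapped with the array set, since 3 of 5 males and 1 of 13 females were on arrays without poly-A control signal. With the array set as a block the difference was 0.67 for CACNB2 207776_s_at (limma, adjusted p = 0.252), 0.25 for CACNA1C 242973_at (limma, adjusted p = 0.664) and 0.19 for CACNB1 210967_x_at (limma, adjusted p = 0.831). Within the 14 arrays with control signal the values were 0.71, 0.36 and 0.30, and none passed. CACNB2 thus kept the size of its difference but not its call, CACNA1C kept neither, and the difference of CACNB1 shrank. Single animals also decided the calls. That of CACNB2 207776_s_at was lost when old M1, old M2, young adult F1, young adult M1 or young adult M2 was left out (limma, adjusted p up to 0.0978), and that of CACNA1C 242973_at when any old or young adult animal but old F3, old F4, old M3 or young adult F4 was left out (limma, adjusted p up to 0.151). The age difference itself was not shown to differ between females and males for any of the 14 probe sets (limma interaction, smallest adjusted p = 0.984), of which none passed the unadjusted threshold, against 4.77% of all kept probe sets.

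The array set itself was compared with the group in the model, a comparison added after the array controls had been seen. Between arrays without and arrays with poly-A control signal, 5 of the 14 probe sets passed the unadjusted threshold, all lower on arrays without it, against 32.1% of all kept probe sets, and 3 passed adjustment, against 15.4% of all. CACNA1C 242973_at had signals of 430 to 564 on the 4 arrays without control signal and 717 to 1721 on the 14 arrays with it, a log2 difference of -1.09 (SE 0.22, limma, adjusted p = 0.00556). CACNA1A 214933_at had 803 to 1352 on arrays without and 1649 to 4081 on arrays with it, a difference of -1.08 (SE 0.25, limma, adjusted p = 0.00923). Neither probe set overlapped between the array sets. CACNB1 210967_x_at differed by -1.17 (SE 0.31, limma, adjusted p = 0.0177), with 3 of 4 arrays below all 14. CACNB3 34726_at had 244 to 419 on arrays without and 428 to 727 on arrays with control signal, again with no overlap, and a difference of -0.60 that did not pass (SE 0.20, limma, adjusted p = 0.0518). In all, 3 of the 14 member probe sets had all 4 arrays below all 14 others, against 1.76% of all kept probe sets. CACNB3 209530_at and CACNA2D1 207050_at differed by 0.13 (SE 0.53) and 0.07 (SE 0.30). AD-like F2 is among these 4 arrays, and the AD-like minus old difference of CACNA1A 214933_at was -0.50 with the array set as a block and -0.38 within the 14 arrays, and that of CACNA1C 242973_at was -0.08 and 0.07.

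**Figure D4:**
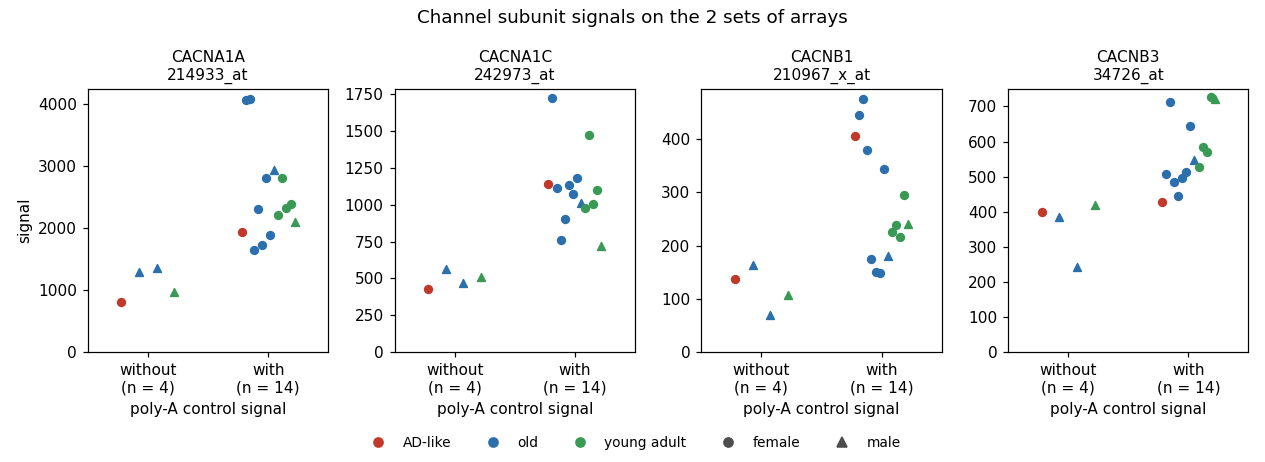
Signals (vertical axes from 0) of CACNA1A, CACNA1C, CACNB1 and CACNB3 probe sets on the 4 arrays without and the 14 arrays with poly-A control signal, 1 point per animal, coloured by group, with circles for females and triangles for males. The signals of CACNA1A 214933_at, CACNA1C 242973_at and CACNB3 34726_at do not overlap between the array sets, and CACNB1 210967_x_at overlaps in old M1 alone.

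The rest of the channel family was followed through 16 further genes, the T-type and remaining L-type pores, the other alpha2delta subunits and the gamma subunits, several of which are known mainly as partners of AMPA receptors. They had 31 probe sets, of which 13 for 11 genes were kept. For AD-like minus old 6 of the 13 differences were positive and 7 negative (median -0.15), and none reached an unadjusted p under 0.05 in limma, against 4.88% of all kept probe sets. For old minus young adult 7 were positive and 6 negative (median 0.02), with 1 past that threshold in each direction, against 5.92% of all. After adjustment none of the 13 passed in either comparison, against 0.00671% of all for AD-like minus old and 0% for old minus young adult.

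CACNA1H 222960_at, for a T-type pore, had the lowest old minus young adult difference among the 31 probe sets of these 16 genes, -1.02 (SE 0.27, a fold of 0.494). Its signals were 199.8 and 107 in AD-like animals, 36.5 to 193 in old animals (median 140.2) and 199.8 to 348 in young adults (median 274). All 10 old animals lay below all 6 young adults, and AD-like F1 was level with the lowest young adult. It was not past adjustment (limma, adjusted p = 0.837), and the probe set is on a list the study drew from these arrays. The difference kept its sign whichever animal was left out, from -1.10 to -0.86. How many of all kept probe sets separate old from young adult animals so fully was not counted. A second CACNA1H probe set, 205845_at, was too dim to be kept. Its old minus young adult difference was -0.02 (SE 0.26), with 7 of 10 old animals above the young adult median. CACNA2D2 204811_s_at, a further alpha2delta subunit, was 107 to 288 in old animals (median 158) and 51.6 to 176 in young adults (median 101). All 10 old animals lay above the young adult median, with a difference of 0.58 (SE 0.27, limma, adjusted p = 0.837). Old F3 (288.1), AD-like F1 (254.8) and old F7 (227.0) took this probe set past the filter. Among young adults F2 (176.1) and M1 (164.0) lay above the limit of the filter, and the next, F4 (111.3), did not. The part of this selection in the difference was not tested.

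CACNG7 224137_at, for a gamma subunit, was too dim to be kept but had the AD-like minus old difference farthest from 0 among the 31 probe sets of these 16 genes. Its signals were 9.47 and 4.51 in AD-like animals, 26.9 to 146 in old animals (median 77.9) and 37.9 to 88.5 in young adults (median 64.9). Both AD-like animals lay below all other animals and below their array medians of 44.3 and 53.0. Among the kept probe sets, which leave this one out, both AD-like animals lay below all old animals for 1.62%. In a fit over all probe sets the difference for AD-like minus old was -1.96 (SE 0.41, limma, adjusted p = 0.209), and this probe set too is on the list the study drew from these arrays. Other dim probe sets of the family with an unadjusted p under 0.05 in that fit were CACNA1G 211314_at (1.23), CACNG4 221585_at (0.99) and CACNA1H 205845_at (-0.90). The share of all probe sets past that threshold in that fit was not counted, so nothing is read from these calls.

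Of 23 genes whose products bind or regulate the channels, such as active zone proteins, calmodulin and calcium-dependent enzymes, 17 were measured by 30 kept probe sets. For AD-like minus old 11 differences were positive and 19 negative (median -0.40), with 2 of 30 past an unadjusted p of 0.05, both lower, against the 4.88% of all. For old minus young adult 18 were positive and 12 negative (median 0.18), with 2 of 30 past it, both higher, against the 5.92% of all. None passed adjustment in limma. No test of a list was made.

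CAMK2A 213108_at, the alpha subunit of a kinase that binds the channels and is activated by calcium and calmodulin, had signals of 994 and 941 in AD-like animals, 1223 to 1976 in old animals (median 1543) and 709 to 1804 in young adults (median 1011). Both AD-like animals lay below all 10 old animals, which held for 1.62% of all kept probe sets. All old animals lay above the young adult median, and the share of all kept probe sets with that pattern was not counted. The differences were -0.70 (SE 0.31, limma, adjusted p = 0.971) for AD-like minus old and 0.54 (SE 0.21, limma, adjusted p = 0.837) for old minus young adult. CAMK2A 213108_at is on lists the study drew from these arrays, so its direction has no independent support here. A further CAMK2A probe set, 207613_s_at, had -0.53 (SE 0.66) and -0.41 (SE 0.44).

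CABP1 208320_at, a calcium-binding protein that alters the inactivation of P/Q-type and L-type channels, had 3052 and 503 in AD-like animals, 1524 to 7431 in old animals (median 3201) and 1071 to 3945 in young adults (median 2706). Its AD-like minus old difference of -1.36 (SE 0.62, limma, adjusted p = 0.971) was carried by AD-like F2 and was -0.08 without that animal. Within the arrays with poly-A control signal, which leave AD-like F2 out, it was -0.32. The part of the low neuronal marker sum of AD-like F2 in it was not tested. On CABP1 208321_s_at AD-like F2 was also below all old animals (775 against 1477 to 5145). On CABP1 210181_s_at it was within their range (235 against 199 to 468). STAC2 228888_at, for an adaptor that binds L-type channels, had 492 to 1072 in old animals (median 760) and 325 to 760 in young adults (median 566), a difference of 0.49 (SE 0.22, limma, adjusted p = 0.837) with 9 of 10 old animals above the young adult median.

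**Figure D5:**
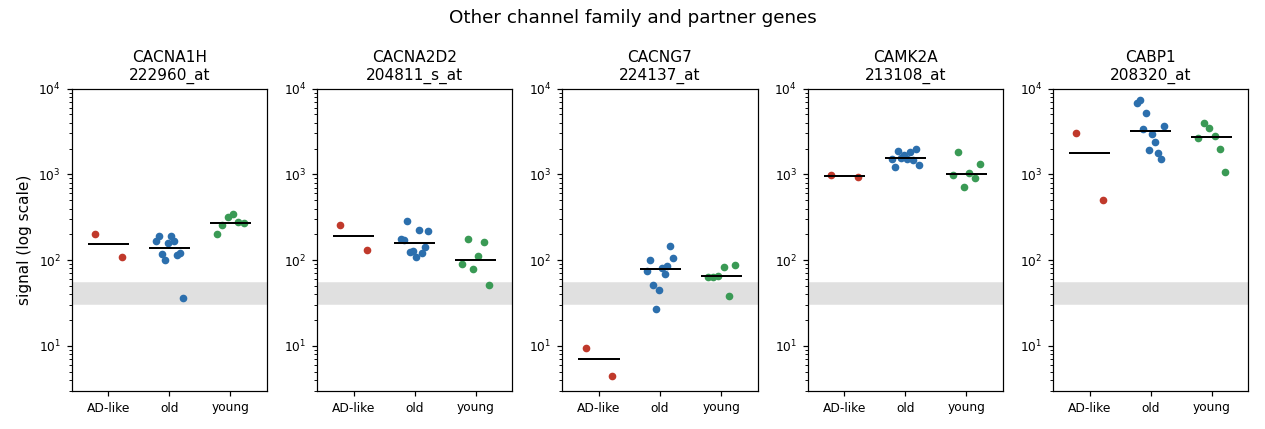
Signals of CACNA1H, CACNA2D2 and CACNG7 of the channel family and of the partners CAMK2A and CABP1, with a log vertical axis, 1 point per animal and a bar at each group's median for 2 AD-like, 10 old and 6 young adult lemurs. The grey band spans the array medians. The old animals lie below the young adults for CACNA1H 222960_at, both AD-like animals lie below all others for CACNG7 224137_at, and AD-like F2 has the lowest signal of CABP1 208320_at.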

How the data were processed

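The authors scanned 18 arrays and computed signals with GCOS (version 1.2 per the labels). The deposited intensity values are linear signals with a trimmed mean of 100.0 on each array. Aligners and builds play no part here, and detection calls were not used. Of 54675 probe sets 62 are controls and were left out, and 14911 were kept, ranked by their third-highest signal. Probe sets were named from a platform table when they carried 1 gene symbol. Signals were transformed to log2(signal + 16), which understates changes of dim probe sets, and compared in R 4.3.3 with limma 3.58.1 in a model of the 3 groups, with Benjamini-Hochberg adjustment over all kept probe sets. One pooled spread served all groups, since 2 AD-like animals cannot give their own, and precision is limited by how few animals there were. Arrays correlated at 0.561 to 0.778 (Spearman), so none was deposited more than once. The members and gene lists were chosen with earlier results of these data known. All members were named, with other family and partner genes at an unadjusted p under 0.05 in old minus young adult or AD-like minus old. Scripts were tested on simulated data. Alternatives covered the offset, filter, normalization, variance model, sex, label numbers, array set, the study's own test and each animal in turn. Sequences were not used here.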

Additional observations from a re-analysis of the deposited data

Results flagged for a closer look

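In each group of 4 to 10 animals the animal farthest from the rest was compared with the whole range of the group on the log2(signal + 16) scale. Of 38 such groups over 19 probe sets, 6 held an animal whose gap to its neighbour was an unusually large share of that range, and chance gives about 1 in 20. For CACNA1A 214933_at, young adult M2 had 975 against 2099 to 2800 in the other young adults (share 0.726). For CACNB1 210967_x_at the same animal had 108 against 216 to 296 (share 0.677). Its array gave little poly-A control signal, and the part of that in both values was not tested. For CACNB1 206996_x_at, young adult F3 had 75.5 against 228 to 366 (share 0.686). For CACNB3 209530_at, old M3 had 38.7 against 240 to 745 in the other old animals (share 0.587), and for CACNA1H 222960_at the same animal had 36.5 against 99.3 to 193 (share 0.570). For CACNA1E 238747_at, old F4 had 560 against 247 to 371 (share 0.507).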

How the results depend on the processing

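The median log2 difference over the kept channel probe sets for AD-like minus old was -0.31 and moved to 0.056 with no filter, which adds 20 dim probe sets. With the replicate block (sex and label number) it was -0.66. The labels give no pairing between animals of the same number, and not every pair correlated above 0.1 (7 of 10 did, from -0.27 to 0.47), so the block is not a paired result. Leaving out 1 animal gave medians of -0.85 (without AD-like F1) to -0.18, and a lone AD-like animal was assumed to vary like the others. For AD-like minus young adult the median was -0.39, and -0.078 with no filter, and -0.63 to -0.19 with 1 animal left out. The 2 probe sets called between females and males became 1 with an offset of 1 or with quantile normalization, 4 with array weights, and 0 with no filter, with the array set as a block or within the arrays with poly-A control signal. With 1 animal left out there were 0 to 2, and 0 without old M1, old M2, young adult F1, young adult M1 or young adult M2. The cause of these changes was not tested. The counts past adjustment for other family and partner genes and for age by sex, 0 in limma, were 0 under every alternative run for them. Probe sets near the array median carry little signal, and changes there may be missed.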
